A study of Canis lupus familiaris with 42 samples.

Results

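The genes described are the cytosolic HSP90 pair HSP90AA1 and HSP90AB1, the HSP90 co-chaperones and associated proteins STIP1, AHSA1, FKBP4, CHORDC1 and CACYBP, and the mitochondrial chaperonin pair HSPD1 and HSPE1. They were taken from a list of names, and all 9 were measured among 15115 genes with a probe set of their own on an Affymetrix canine array. Each gene was read from the probe set annotated with its symbol alone that had the highest mean over the 42 arrays, and its other probe sets served as a check. The tumours were spontaneous sarcomas of dogs, sampled after the first hyperthermia treatment (21 arrays) and before it (21 arrays, treatment given as none), and the arrays came from the same 21 tumours. The series describes 22 tumours, in all of which heat was given beside radiotherapy. Breed, age, sarcoma type, the delay between heating and the second sample, and whether radiation had been given by then are not given in the sources used here. No tumour was sampled again without heating, so every change below compares a tumour's second sample with its first.

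HSP90 is an ATP-driven chaperone that holds kinases, steroid receptors and other client proteins in a state from which they can be activated. HSP90AA1 is the stress-inducible and HSP90AB1 the mostly constitutive cytosolic form, and co-chaperones load clients, set the pace of the ATPase cycle or add enzyme activities. HSP60 (HSPD1) and its lid HSP10 (HSPE1) fold proteins imported into the mitochondrial matrix. In mammals many of these genes carry heat shock elements and are driven by the transcription factor HSF1 when proteins unfold, which is the reason to look at them after heating. HSPD1 and HSPE1 are also neighbours in the current dog gene table, and in mammals they share a promoter region between them.

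Values are log2 levels from RMA, a method that subtracts background, brings arrays to a common distribution and combines the probes of each probe set. A difference of log2 levels is a change on the log2 scale, and levels of different genes are not compared because their probes differ. Array medians ran from 5.198 to 5.31, and all 9 genes lay above the median probe set mean of 5.28. The mean of 10 mesenchymal markers ran from 11.1 to 13.1 after and from 11.2 to 12.9 before treatment. Among them VIM lay between 13.6 and 14.3 after and between 13.2 and 14.2 before, whereas LUM varied from 5.76 to 13.6 after and from 4.32 to 12.98 before. The epithelial marker EPCAM had a median of 3.01 after and 3.13 before. Keratinocyte markers were nonetheless high in some arrays, their mean running from 3.59 to 8.78 after and from 3.54 to 8.93 before treatment, and 0 of 6 measured ones passed. Bacterial poly-A transcripts, spiked into each sample as a labelling control, split the tumours into 9 with a high level (tumour means of 6.98 to 7.997) and 12 with a low level (3.11 to 4.13). No label gives a reason for this split, and both arrays of a tumour always lay on the same side. The difference between 3′ and 5′ control probes for actin and GAPDH (the 3′/5′ contrast), which reflects RNA integrity, changed by 0.38 ± 0.38 in the high and by -0.0012 ± 0.37 in the low poly-A tumours (SD, n = 9 and 12). In bulk tissue fewer cells of a type and less RNA per cell cannot be told apart.

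The first question was whether the HSP90 and chaperonin genes differed between the samples. None of the 9 passed. Limma with each tumour as a block called 0 higher and 0 lower at an adjusted p under 0.05 (Benjamini-Hochberg, over 42924 probe sets), where 4.02% of the 15115 genes were called higher and 3.13% lower (2.97% and 2.99% of the probe sets). At an unadjusted p under 0.05 the count was 3 of 9, STIP1, CACYBP and AHSA1, all with a mean change above 0, against 12.1% of genes higher and 9.63% lower (9.95% and 9.47% of the probe sets). The sign-flip permutation test gave the same 3 at an unadjusted p under 0.05. The median of the 9 mean changes was 0.11, beside 0.0069 over all genes, and 8 of 9 lay above 0, beside 53.1% of all genes. That median was 0.038 with array weights, 0.028 in the high and 0.17 in the low poly-A tumours alone (groups described above), and 0.069 without the tumours whose 3′/5′ contrast changed.

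HSP90AA1, the inducible form, ran from 11.7 over a median of 12.22 to 12.9 after treatment, and from 11.4 over 12.1 to 12.6 before it. The groups overlapped almost entirely, with 12 tumours higher and 9 lower after treatment. Its mean change was 0.11 ± 0.07 (SE, n = 21), or 1.08-fold with a 95% interval of 0.972 to 1.19, and limma's adjusted p was 0.464. It was 0.035 with array weights. With the tumour as a block these weights were equal for both arrays of a tumour, so they count tumours with deviating changes less. HSP90AB1 ran from 11.3 over 11.95 to 12.8 after and from 11.3 over 12.05 to 12.7 before treatment. Its mean change was -0.04 ± 0.05, or 0.976-fold with an interval of 0.903 to 1.055 (adjusted p = 0.802 by limma, 10 tumours higher and 11 lower), the narrowest interval of the 9 genes. It was -0.077 both with array weights and without tumours 13 and 15. For the chosen probe sets, the 95% intervals of both HSP90 genes in the fit over 21 tumours leave out a mean change of 1.2-fold in either direction. HSP90AA1 has no other probe set of its own. The probe sets it shares with the symbol LOC607470 gave 0.13 ± 0.10 and 0.15 ± 0.07 (SE, n = 21), and that bound was not worked out for them. Of the 4 other probe sets of HSP90AB1, the 2 bright ones (mean levels of 11.4 and 10.4) both had a mean change of -0.04, and the 2 dim ones had -0.06 (level 3.79) and 0.05 (level 2.85).

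The levels of the inducible and the constitutive form moved by unequal amounts in many tumours. The signed change, after minus before, was higher for HSP90AA1 than for HSP90AB1 in 14 of 21 tumours, whichever of them moved further. The mean difference of their changes was 0.14 ± 0.31 (SD, n = 21, sign-flip permutation test, two-sided, p = 0.0486, and adjusted p = 0.0486 over the 2 gene pairs compared). It was 0.12 in the high poly-A tumours (7 of 9 above 0) and 0.16 in the low poly-A tumours (7 of 12 above 0). The call was marginal, as it was lost when quantile normalisation was repeated (0.13, adjusted p = 0.057) and also without any 1 of 12 tumours, namely 1, 2, 3, 7, 10, 11, 12, 13, 14, 16, 20 and 21.

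**Figure D1:**
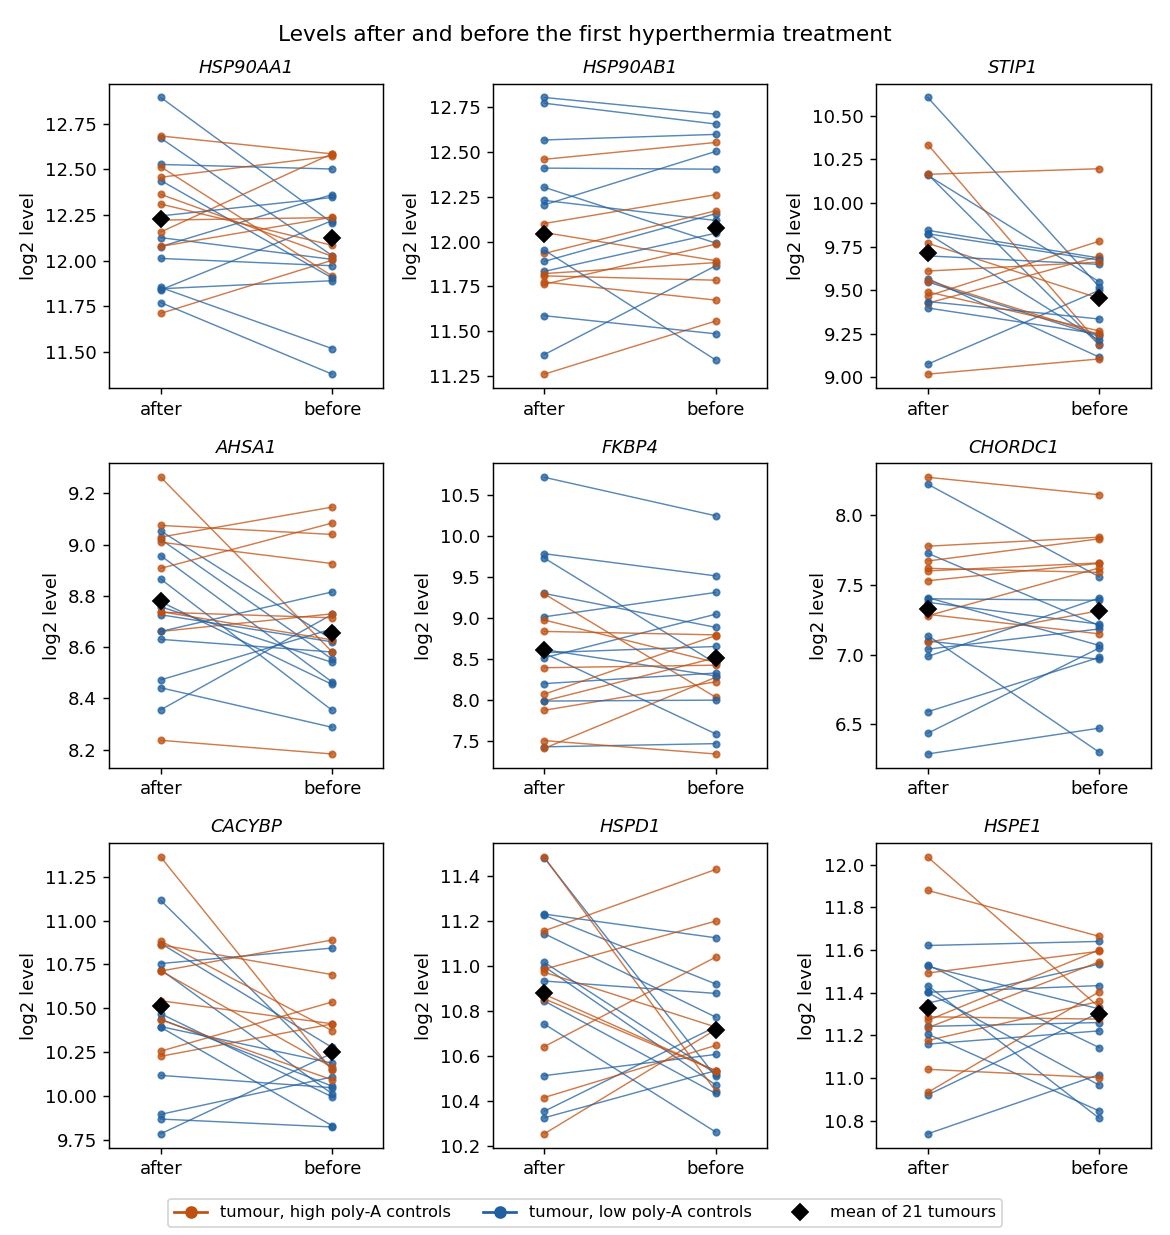
Log2 level of each of the 9 genes (vertical axes, a scale per panel) after treatment on the left and before it on the right. Lines join the arrays of 1 tumour, orange for the 9 tumours with high and blue for the 12 with low poly-A controls, and black diamonds are means of 21 tumours. The ranges after and before treatment overlap for every gene, and lines run both up and down in each panel.

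Among the co-chaperones, STIP1 and CACYBP had the largest mean changes of the 9 genes. STIP1 (also called HOP) hands clients over from HSP70 to HSP90. It ran from 9.02 over a median of 9.61 to 10.6 after treatment, and from 9.11 over 9.45 to 10.2 before it. Its mean change was 0.26 ± 0.09 (SE, n = 21), or 1.198-fold with a 95% interval of 1.05 to 1.36, with 15 tumours higher and 6 lower (limma, adjusted p = 0.0852, unadjusted p = 0.0073). CACYBP, a calcyclin-binding protein that also binds a ubiquitin ligase, ran from 9.79 over 10.47 to 11.4 after treatment and from 9.82 over 10.2 to 10.9 before it. The mean change was 0.26 ± 0.09, or 1.1996-fold (interval 1.06 to 1.36), with 15 tumours higher (limma, adjusted p = 0.0787). STIP1 passed without tumour 6 (0.29, adjusted p = 0.0405), and CACYBP passed without tumour 5 (0.30, adjusted p = 0.038), each in only 1 of 21 such fits. Both also passed with the tumour as a random block (adjusted p = 0.0448 for STIP1 and 0.04558 for CACYBP). Without tumour 10 STIP1 had 0.22 and CACYBP 0.215 (limma adjusted p = 0.156 and 0.141). With array weights they had 0.20 and 0.196 (limma adjusted p = 0.154 and 0.174). The 2 other probe sets of STIP1 gave 0.23 and 0.07, and over the mean of its 3 probe sets STIP1 missed the unadjusted threshold (0.19, sign-flip permutation p = 0.0614). The second probe set of CACYBP gave 0.25.

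AHSA1, which speeds up the ATPase of HSP90, ran from 8.24 over 8.76 to 9.26 after treatment and from 8.18 over 8.63 to 9.15 before it. On average it changed by 0.13 ± 0.06, or 1.09-fold (interval 1.002 to 1.19), higher in 15 tumours (limma, unadjusted p = 0.0447, adjusted p = 0.242). Its 2 other probe sets gave 0.07 and 0.38. FKBP4, a prolyl isomerase that sits with HSP90 on steroid receptors, varied most between tumours, from 7.41 over 8.57 to 10.7 after and from 7.34 over 8.45 to 10.2 before treatment. It changed by 1.28 in tumour 7, or 2.44-fold, and by -0.87 in tumour 11, where the 3′/5′ contrast changed by 0.77. The SD of the change of FKBP4 was 0.59, the largest of the 9. The mean change of 0.10 ± 0.12 came with 10 tumours higher and 11 lower (interval 0.906 to 1.27-fold, limma adjusted p = 0.718). Its second probe set gave 0.17. CHORDC1 (morgana), an HSP90-binding protein with zinc-binding domains, had the mean change closest to 0, 0.01 ± 0.08 (limma adjusted p = 0.962). It ran from 6.29 over 7.38 to 8.27 after and from 6.30 over 7.31 to 8.15 before treatment, and its second probe set gave 0.14.

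The mitochondrial chaperonin genes were next. HSPD1 ran from 10.3 over a median of 10.9 to 11.5 after treatment, and from 10.3 over 10.6 to 11.4 before it. Its mean change was 0.16 ± 0.09 (SE, n = 21), or 1.12-fold (interval 0.987 to 1.27), with 13 tumours higher and 8 lower (limma, adjusted p = 0.329), and it was 0.067 with array weights. Its other 2 probe sets gave 0.16 and 0.08. HSPE1 ran from 10.7 over 11.29 to 12.04 after and from 10.8 over 11.32 to 11.7 before treatment, with 9 tumours higher and 12 lower. It changed by 0.03 ± 0.07 on average, or 1.02-fold (interval 0.924 to 1.13, limma adjusted p = 0.884). HSPE1 has 1 probe set on the array, of a kind (its name ends in _x_at) that can bind related transcripts.

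The partners of the chaperonin also differed in their signed change. That of HSPD1 was higher than that of HSPE1 in 15 of 21 tumours, with a mean difference of 0.13 ± 0.22 (SD, n = 21, sign-flip permutation test, two-sided, p = 0.0109, adjusted p = 0.0218 over 2 gene pairs). The mean difference was 0.09 in the high poly-A tumours (6 of 9 above 0) and 0.17 in the low poly-A tumours (9 of 12 above 0). It passed whichever of the 21 tumours was left out (adjusted p from 0.00984 to 0.0431). Each gene was read by 1 probe set here, so a difference in how far probe sets follow a change was not tested.

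**Figure D2:**
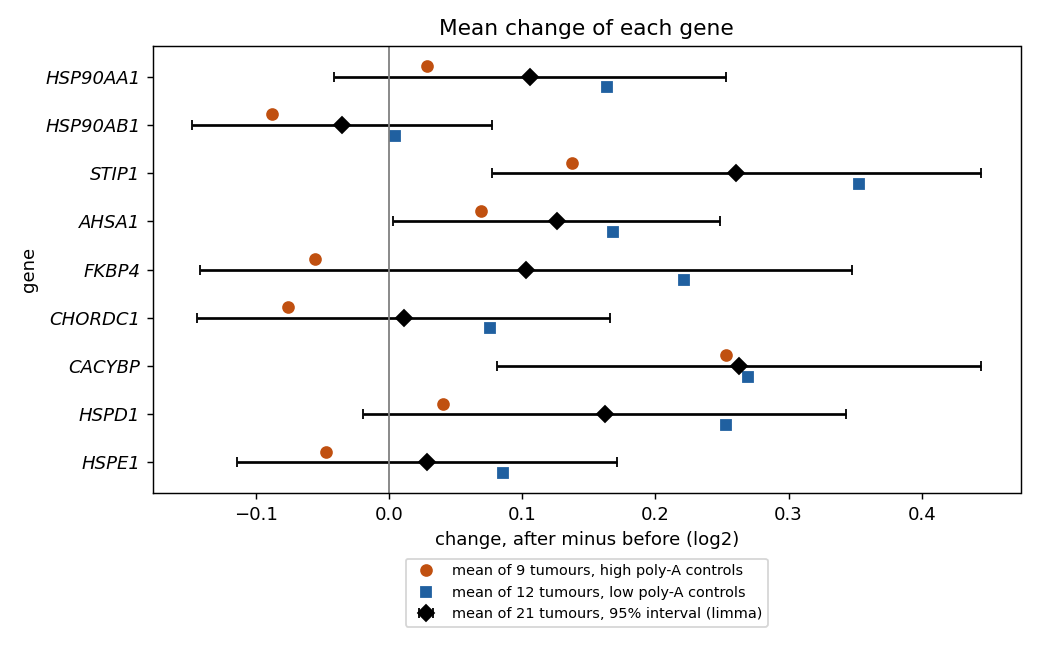
Mean change after minus before treatment (horizontal axis, log2) of each of the 9 genes. Black diamonds with bars are the means of 21 tumours with the 95% interval of the limma fit, orange circles the means of the 9 high poly-A tumours and blue squares those of the 12 low poly-A tumours. STIP1 and CACYBP lie at 0.26, HSP90AB1 at -0.04, and the orange circle is left of the blue square for every gene.

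The mean change was lower in the high than in the low poly-A tumours for all 9 genes, whereas 46.2% of all genes were lower there. For STIP1 the means were 0.14 in the high and 0.35 in the low poly-A tumours, for FKBP4 -0.06 and 0.22, and for HSPD1 0.04 and 0.25. CACYBP hardly differed, with 0.25 and 0.27. Tested as an interaction over all probe sets in limma, 0 of 9 passed, and 0 of 9 had an unadjusted p under 0.05, which 6.28% of genes had. The smallest unadjusted p was 0.239 for HSPD1 (adjusted p = 0.846), and 0.00233% of the 42924 probe sets passed. Among the other probe sets of the members, 1 of HSPD1 (a difference of high minus low of -0.65, unadjusted p = 0.0197) and 1 of STIP1 (-0.41, unadjusted p = 0.0353) differed more in limma's interaction term, and 1 of AHSA1 went the other way (0.24, unadjusted p = 0.46). The poly-A split goes with the change in the 3′/5′ contrast given above. With that change as a covariate the mean changes were 0.24 for STIP1, 0.21 for CACYBP, 0.15 for HSPD1 and 0.06 for HSP90AA1, and limma called 0 of 9. At an unadjusted p under 0.05 the count was 0 of 9 in the high and 3 of 9 in the low poly-A tumours alone, against 19.7% and 11.6% of probe sets in either direction. It was 0 of 9, against 12.8% of probe sets, without the 6 tumours in which that contrast moved by over 0.5 in either direction, an alternative chosen after the data were seen. There STIP1 had 0.21, CACYBP 0.15, AHSA1 0.101, HSPD1 0.081 and HSP90AA1 0.0019.

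A small mean change could go with larger changes in single tumours, and the study was concerned with how tumours differ in their response. The SD of the change over the 21 tumours had a median of 0.36 over the 9 genes, beside 0.28 over all genes. It was 0.59 for FKBP4 (mean change 0.10) and 0.36 for CHORDC1 (0.01), but 0.25 for HSP90AB1 (-0.04). In tumour 10, 8 of 9 genes were higher after treatment, 7 of them by at least 1.5-fold, among them FKBP4 by 1.26, CACYBP by 1.21, STIP1 by 1.14 and HSPD1 by 1.04 on the log2 scale. The 3′/5′ contrast changed by 0.51 in tumour 10, which is 1 of the 6 tumours left out above. It changed by 0.07 in tumour 1 and by -0.18 in tumour 6. In tumour 1, 8 genes were higher and 5 of them by at least 1.5-fold, with FKBP4 and STIP1 at 0.98, HSPD1 at 0.97 and CACYBP at 0.96. In both tumours CHORDC1 was the gene that went lower, with -0.23 in tumour 10 and -0.15 in tumour 1. Tumour 6 stood at the other end, where all 9 genes were lower after treatment, by -0.61 for CHORDC1 to -0.21 for CACYBP. The median change of the 9 genes was above 0 in 13 of 21 tumours and ran from -0.37 in tumour 6 to 0.70 in tumour 10. In those tumours the median change of all genes was -0.011 and 0.010.

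Some tumours moved the groups of genes apart. In tumour 7 FKBP4 changed by 1.28, STIP1 by 1.09, CACYBP by 0.59 and AHSA1 by 0.51, while HSP90AB1 was at 0.0057, HSPD1 at 0.05 and HSPE1 at -0.02. There 4 of the 5 co-chaperones were higher, the exception being CHORDC1 at -0.18, and the chaperonin genes and HSP90AB1 stood close to their first level. In tumour 15 the order was turned, with HSPE1 at 0.62, HSP90AB1 at 0.61 and HSPD1 at 0.49. There HSP90AA1 had 0.34, FKBP4 0.27, AHSA1 0.15, CACYBP 0.07, STIP1 0.05 and CHORDC1 -0.42. The arrays of tumour 15 had the lowest array weight of the 21 tumours (0.402). In tumour 16, where the 3′/5′ contrast changed by 0.58, CHORDC1 had its highest change of 0.84 and HSP90AA1 changed by 0.53, while HSP90AB1 changed by -0.21. These are values of single pairs of arrays, with no replicate within a tumour.

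**Figure D3:**
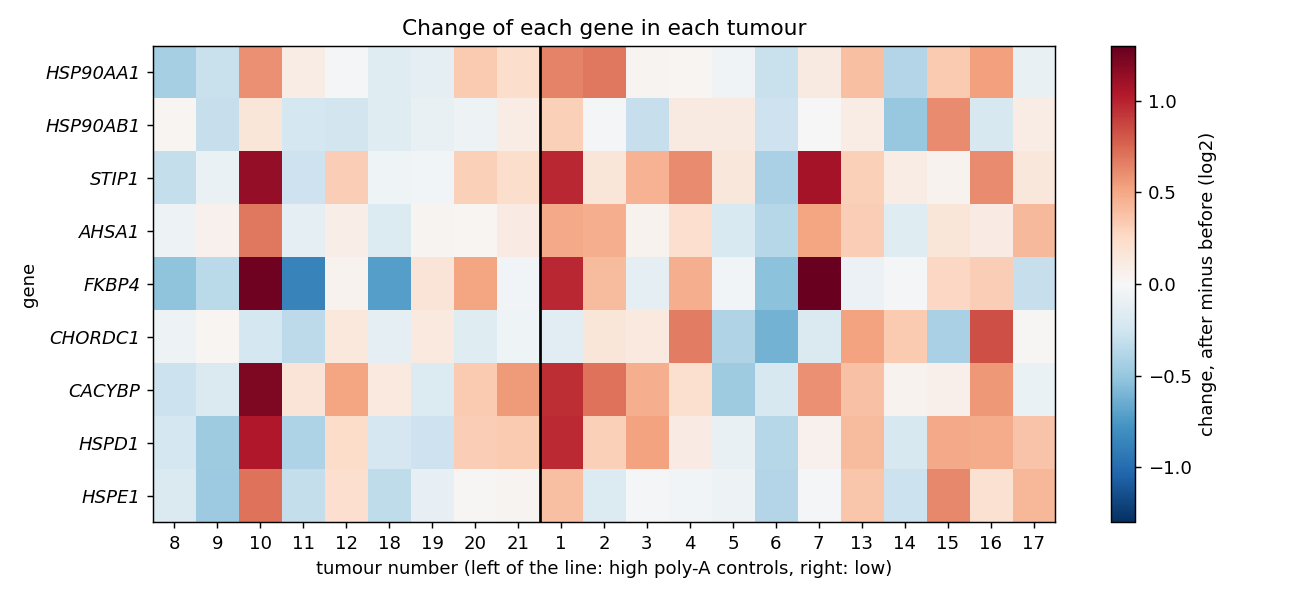
Change after minus before treatment (colour, log2, red higher and blue lower after treatment) of the 9 genes (rows) in each of 21 tumours (columns, high poly-A tumours left of the line, low ones right). Tumours 10 and 1 are red for 8 of 9 genes, tumour 6 is blue for all 9, and tumour 7 is red for STIP1, AHSA1, FKBP4 and CACYBP, pale for HSP90AB1, HSPD1 and HSPE1 and blue for CHORDC1.

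The second question was whether the genes changed together from tumour to tumour. Over 21 tumours, r between the changes of 2 genes was above 0 for 35 of 36 pairs, and 25 pairs passed at 0.05 after Benjamini-Hochberg adjustment over the 36 (permutation tests, 25 also by Spearman's rho). The lowest r that passed was 0.49, which 5.49% of the relations between a member and a gene outside the list reached. By a Bayesian mixture criterion the change of each of the 9 genes formed 1 cluster of tumours. The changes of a tumour share its 2 arrays and their normalisation. The number of pairs that passed was 19 in the high poly-A tumours alone (n = 9), but only 5 in the low poly-A tumours alone (n = 12).

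The closest pair was the co-chaperones STIP1 and FKBP4. Their changes had r = 0.887 (permutation p = 1e-05, the smallest 100000 permutations can give, adjusted p = 9e-05) and rho = 0.782 (permutation p = 4e-05, adjusted p = 0.00036, n = 21). The 2 farthest tumours, here and below, are those farthest from the median of the pair's first gene, in the order of the opening list. Without these 2 tumours r was 0.801, and it was 0.911 in the high and 0.857 in the low poly-A tumours. Of 15114 other genes STIP1 was the 1st by r with FKBP4, and FKBP4 the 2nd by r with STIP1. The ATPase activator AHSA1 was related to both, to STIP1 (r = 0.768, permutation p = 3e-05, adjusted p = 0.00018, rho = 0.726, permutation p = 0.00025, adjusted p = 0.00112) and to FKBP4 (r = 0.75, permutation p = 0.00011, adjusted p = 0.00044, rho = 0.668, permutation p = 0.00134, adjusted p = 0.00345), and by r with AHSA1 STIP1 was the 5th and FKBP4 the 12th of the other genes. The same pair was not related in its levels before treatment (r = 0.168, permutation p = 0.463, rho = 0.361, permutation p = 0.109). That value changed to 0.559 without the 2 tumours farthest from the median, and it was -0.413 in the high and 0.714 in the low poly-A tumours. Before treatment FKBP4 passed with 0 of the 8 other genes over 36 pairs (r from -0.205 to 0.168), although 12 pairs in all passed there. After treatment the levels of STIP1 and FKBP4 had r = 0.55 (permutation p = 0.00926, adjusted p = 0.0208) and rho = 0.63 (permutation p = 0.00254, adjusted p = 0.00703), and FKBP4 passed with 2 of the 8 other genes by r and 3 by rho. The difference between the relations after and before treatment was not tested.

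HSPD1 and HSPE1, which work as 1 machine, had r = 0.86 between their changes (permutation p = 1e-05, adjusted p = 9e-05) and rho = 0.891 (permutation p = 1e-05, adjusted p = 0.00012). The value was 0.81 without the 2 farthest tumours, 0.949 in the high and 0.755 in the low poly-A tumours. Of the 15114 other genes, HSPD1 was the 3rd by r with HSPE1 and HSPE1 the 19th by r with HSPD1. The plot of the pairs shows both measurements, the close relation and the signed change of HSPD1, higher than that of HSPE1 in most tumours.

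Among the members, HSP90AA1 had its highest r with CACYBP (r = 0.796, permutation p = 2e-05, adjusted p = 0.000144, rho = 0.829, permutation p = 1e-05, adjusted p = 0.00012) and HSPD1 (r = 0.796, permutation p = 1e-05, adjusted p = 9e-05, rho = 0.738, permutation p = 0.00021, adjusted p = 0.00108). Of 15114 other genes CACYBP was the 24th, HSPD1 the 25th and HSP90AB1 the 1175th by r with HSP90AA1. With HSP90AB1 it had r = 0.491 (permutation p = 0.0232, adjusted p = 0.0334) and rho = 0.49 (permutation p = 0.0254, adjusted p = 0.0365). That relation missed the threshold without the 2 farthest tumours (r = 0.462, permutation test, adjusted p = 0.0616) and after repeated quantile normalisation (r = 0.348, permutation test, adjusted p = 0.17). It also did not pass in the high (r = 0.52, adjusted p = 0.194) or the low poly-A tumours alone (r = 0.472, adjusted p = 0.224, permutation tests). Of the members HSP90AB1 had its highest r with HSPE1 (0.698, permutation p = 0.00033, adjusted p = 0.00099, rho = 0.625, permutation p = 0.00304, adjusted p = 0.00576), the 69th of the 15114 other genes. That relation did not pass in the high poly-A tumours alone (r = 0.658, permutation test, adjusted p = 0.0764). The test of a difference between 2 such relations was not run.

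CHORDC1, as read by its chosen probe set, stood apart. Of its 8 pairs 0 passed, with r from -0.242 with HSP90AB1 to 0.261 with STIP1, against 25 of 28 pairs among the other 8 genes. Without the 2 farthest tumours r was 0.531 with STIP1 and ran from 0.005 with HSP90AB1 to 0.334 with FKBP4 in its other pairs. The tumours left out were chosen on the first gene of each pair, so they can differ between these pairs. The change in its second probe set had r = 0.593 with that in the chosen one, and relations of the second probe set with other members were not tested. The level of CHORDC1 before treatment had r = 0.573 with that of CACYBP (permutation p = 0.00654, adjusted p = 0.0252), though by rho, 0.535, it missed the threshold (permutation p = 0.0135, adjusted p = 0.0539). Of genes outside the list, 1.07% reached an r of 0.49 with the change of CHORDC1, compared with 9.62% for HSPD1.

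**Figure D4:**
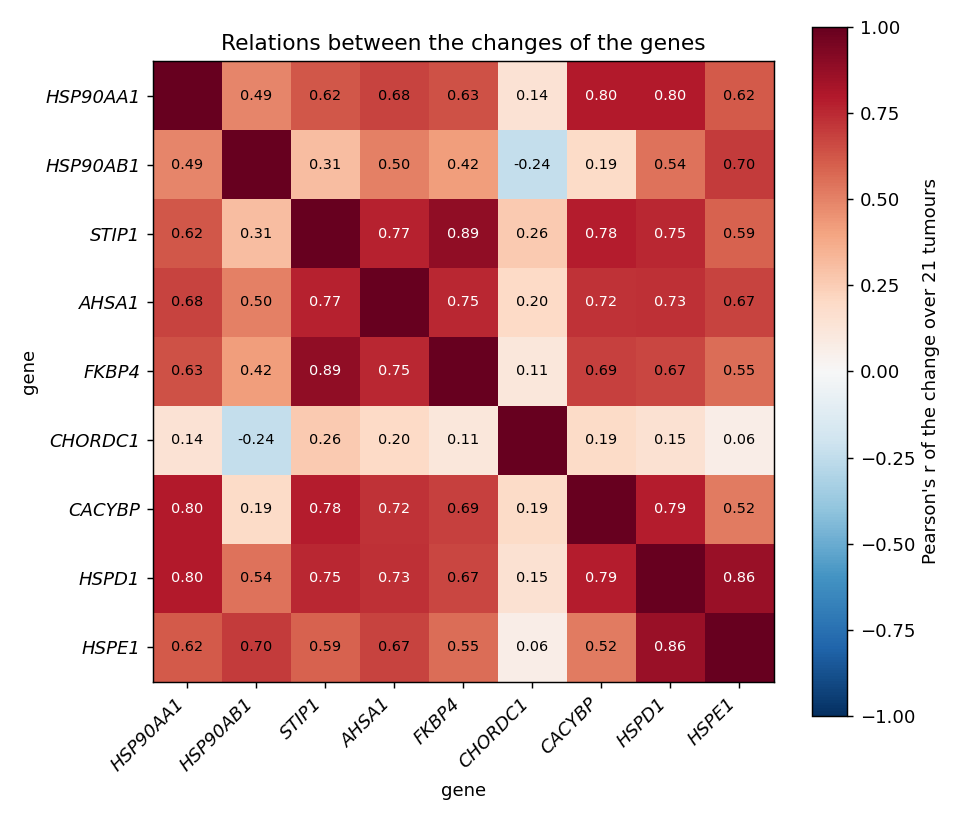
Pearson's r (colour and number) between the changes after minus before treatment of each pair of the 9 genes over 21 tumours. The row and column of CHORDC1 are pale, with r from -0.24 to 0.26, and the STIP1 and FKBP4 pair has the highest value, 0.89.

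**Figure D5:**
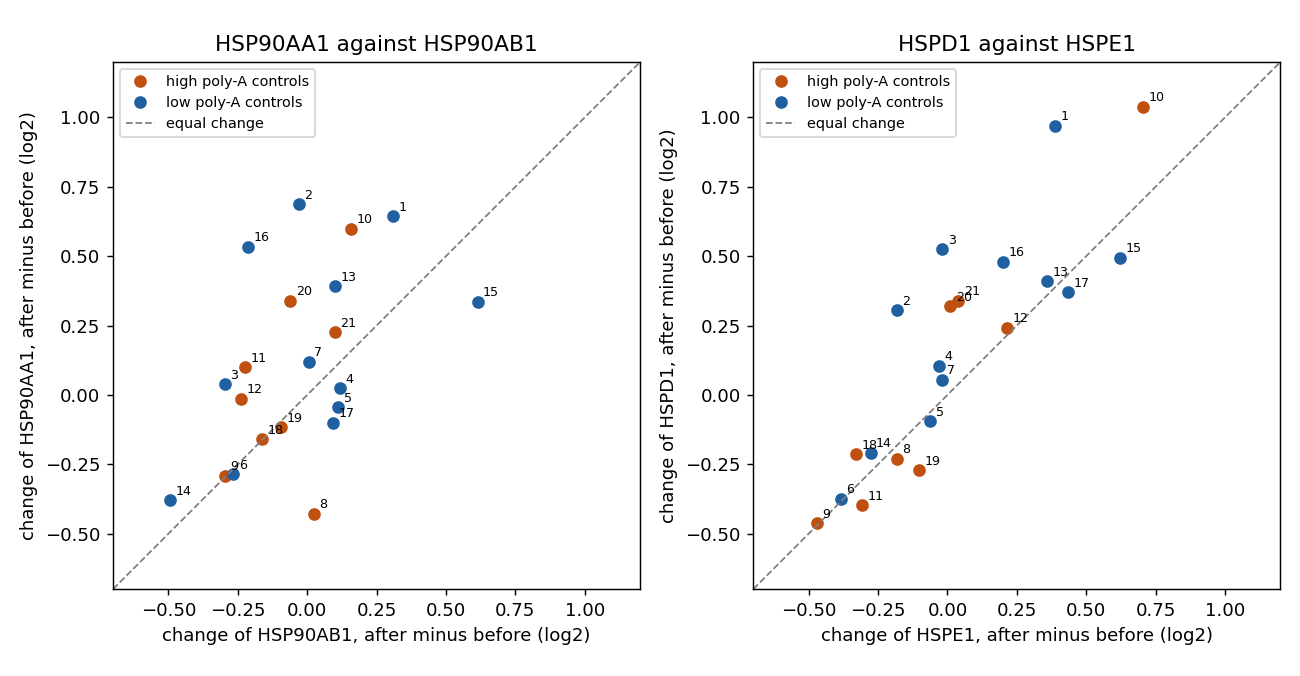
Change after minus before treatment (log2) of HSP90AA1 against HSP90AB1 on the left and of HSPD1 against HSPE1 on the right. Each point is 1 of 21 tumours with its number, orange with high and blue with low poly-A controls, and the dashed line marks equal change. Most points lie above the line, 14 of 21 on the left and 15 of 21 on the right, and the points on the right lie closer to a line.

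Measures outside the list were set beside the members in 18 relations chosen after the data were seen. In these the 2 farthest tumours were chosen on the outside measure. The change of 8 measured proliferation markers, of which 6 fell and 0 rose (median change -1.15), had its highest r with HSPE1, at 0.54 (permutation p = 0.0121, adjusted p = 0.217) and rho = 0.464 (permutation p = 0.0362, adjusted p = 0.323), and r was 0.343 without the 2 farthest tumours. The change in the 3′/5′ contrast had r = 0.331 with HSP90AA1 (permutation p = 0.144, adjusted p = 0.611; rho = 0.396, permutation p = 0.0774, adjusted p = 0.348), and the value was 0.763 in the high and 0.306 in the low poly-A tumours and 0.578 without the 2 farthest tumours. With CACYBP it had r = 0.331 (permutation p = 0.143, adjusted p = 0.612; 0.496 without the 2 farthest) and rho = 0.436 (permutation p = 0.0495, adjusted p = 0.323). None of the 18 passed after adjustment. Markers of other cell types moved too, where 4.02% of all genes rose and 3.13% fell. Of 5 measured neutrophil markers 3 rose, with a list mean of 4.69 to 8.83 after and 4.76 to 9.498 before treatment, and of 8 T and NK cell markers 4 fell, with a list mean of 4.34 to 5.57 after and 4.75 to 6.32 before. Of 8 macrophage markers 1 rose (MSR1) and 1 fell (CSF1R), with a list mean of 7.10 to 9.23 after and 6.91 to 9.31 before, and of the 10 mesenchymal markers 1 fell (SPARC). Of 7 measured skeletal muscle markers 0 passed. For these cell type lists the part in the members' changes was not tested.

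By Pearson's r of the change over 21 tumours, the genes outside the list most like HSP90AA1 were DCUN1D5 (0.899), UBE2D3 (0.899), GOLM1 (0.861), SLC5A6 (0.856) and ZNHIT3 (0.843). DCUN1D5 and UBE2D3 encode parts of the neddylation and ubiquitin machinery, and SLC5A6 a vitamin transporter. Of these only SLC5A6 passed on its own, with a mean change of 0.38 ± 0.09 (SE, limma adjusted p = 0.01556, 15 tumours higher). The genes most like HSPD1 were EIF2S2 (0.914), ZNHIT3 (0.91), SRP19 (0.906), NDUFB6 (0.897) and WDR36 (0.897). EIF2S2 is a subunit of a translation initiation factor, SRP19 of the signal recognition particle, and NDUFB6 of respiratory complex I. Of these NDUFB6 passed on its own (0.21 ± 0.06, adjusted p = 0.0463). ZNHIT3 was in both sets. These r values describe the changes of shared arrays and are the highest of 15106 genes each.

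The rest of the machinery around the members was read from lists of related genes. Of 23 measured other HSP90 family members and co-chaperones 2 rose and 0 fell, where 4.02% of all genes rose and 3.13% fell. Their median change was 0.06, beside 0.0069 over all genes, and no list was tested as a set. BAG1, a nucleotide exchange factor of HSP70, rose by 0.39 ± 0.08 (SE, n = 21, limma adjusted p = 0.00592), higher in 18 of 21 tumours. TRAP1, the mitochondrial HSP90, rose by 0.18 ± 0.05 (limma adjusted p = 0.0365, 15 tumours higher). The call on TRAP1 was lost in the fits without tumour 1, 2, 3, 4, 10, 11, 15, 17, 18, 20 or 21. HSP90B1, the HSP90 of the endoplasmic reticulum, had a mean change of 0.44 ± 0.13 and missed the threshold (adjusted p = 0.054), but passed without tumour 5, 6, 7, 8, 9 or 14. It also passed with the tumour as a random block (adjusted p = 0.0187). BAG1 and TRAP1 did not pass in the high poly-A tumours alone (limma adjusted p = 0.0601 and 0.099), where 510 probe sets were called higher and 783 lower. Nor did they pass without the tumours with a changed contrast (0.126 and 0.288), where 139 probe sets were called higher and 201 lower. In the low poly-A tumours alone they had 0.202 and 0.461, but limma called 0 of 42924 probe sets there, so no gene could pass. TRAP1 was also lost with the contrast as a covariate (adjusted p = 0.124).

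The genes of the heat shock factors HSF1 and HSF2, which drive heat shock genes at the level of protein activity, had mean changes of 0.04 ± 0.05 and 0.04 ± 0.06 (limma adjusted p = 0.739 and 0.788), and HSF4 had 0.06 ± 0.05 (adjusted p = 0.602). With the binding protein gene HSBP1 0 of 4 passed, and at an unadjusted p under 0.05 also 0 of 4. Among 15 mitochondrial chaperones and proteases 1 rose and 0 fell, beside 4.02% and 3.13% of all genes. LONP1, the matrix protease, rose by 0.21 ± 0.05 (adjusted p = 0.0135) in 20 of 21 tumours. That call was lost with the contrast as a covariate (adjusted p = 0.0574), in the high poly-A tumours alone (0.16) and without the tumours with a changed contrast (0.101). In the low poly-A tumours alone it was also absent (0.252), but there 0 of 42924 probe sets passed. HSPA9, the mitochondrial HSP70, had 0.46 ± 0.15 (adjusted p = 0.0678; it passed without tumour 5, 6 or 19). Of 12 measured subunits of the cytosolic chaperonin TRiC and of prefoldin 0 passed (1 at an unadjusted limma p under 0.05), with CCT4 at 0.16 ± 0.06 (adjusted p = 0.116) and CCT8 at 0.13 ± 0.07 (adjusted p = 0.305). Among 11 measured cytosolic chaperones and co-chaperones of other families 4 rose and 1 fell, beside 4.02% and 3.13% of all genes, with a median change of 0.25. The small heat shock protein gene CRYAB rose by 1.14 ± 0.22 (adjusted p = 0.00358) and HSPA2 fell by 1.19, a change of -1.19 ± 0.20 (adjusted p = 0.0016), beside mean changes of -0.04 to 0.26 for the 9 members. CRYAB kept its direction but missed the threshold in the high poly-A tumours alone (1.004, adjusted p = 0.115) and without the tumours with a changed contrast (0.97, adjusted p = 0.106). In the low poly-A tumours alone, where no probe set passed, CRYAB had 1.25 (adjusted p = 0.145) and HSPA2 had -1.22 (adjusted p = 0.154).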

How the data were processed

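RNA of 42 canine sarcoma samples was measured on Affymetrix arrays. Per the labels' protocols tissue went into RNAlater, and RNA was column-extracted and biotin-labelled. The deposited values are log2 levels, made by the authors with RMA and Affymetrix Expression Console per the submitters' processing notes (versions not given in the sources used here). Without 111 controls, 42924 of 43035 probe sets were tested. GEO's platform annotation names a single gene for 29254, several for 439 and none for 13231. By gene identifier 27680 of the 29254 were found in a newer gene table, under the same symbol. The 9 members have 22 probe sets of their own. The 3 that carry a second symbol were not chosen for any gene.

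The treatment label gave each array's group, and the tumour code that opens its title gave its pair. After removal of group means, each of the 21 pairs correlated best with its own partner (lowest r 0.438). The labels do not say that each tumour came from another dog, so p-values cover only the spread seen here. Tests across probe sets used limma 3.58.1 in R 4.3.3, after minus before, with the tumour as a block, two-sided and adjusted by Benjamini-Hochberg. No filter on low values was used. Permutation tests used 100000 resamples, and mclust 6.1.1 checked changes for 2 clusters. Other steps ran in Python 3.11.15 (NumPy 2.4.6, SciPy 1.17.1 and pandas 2.3.3), with plots from Matplotlib 3.10.9. Tumours were split at a poly-A level of 5.56, the middle of the largest gap. On simulated data over 42924 probe sets the fit recovered 38% of 50 changes of 0.25 and 88% of 50 changes of 0.5 on the log2 scale, with 7 false calls. The simulation had 50 changed probe sets per size and independent noise, whereas 1273 probe sets were called higher and 1285 lower in the data. Adjusted thresholds therefore differ, and these rates do not give the power of the real fit.

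The members and lists were chosen with earlier results of these data known. The genes named are the members, from each list the 2 lowest p and the 2 greatest absolute changes, and the 5 genes most like HSP90AA1 and most like HSPD1. EPCAM, VIM, LUM, MSR1, CSF1R, SPARC and HSBP1, and the genes named under other observations, were added after their values were seen. Alternatives were the fit without the block or with a random one, array weights, shrinkage with a trend or made robust, a filter on dim probe sets (median level), repeated quantile normalisation, median centring, the 3′/5′ contrast as a covariate, a single probe set for each gene, a minimum fold of 1.2, other probe sets, each poly-A group alone, all tumours but 13 and 15, and leaving out each tumour.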

Additional observations from a re-analysis of the deposited data

How the results depend on the processing

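The counts of 0 members higher and 0 lower held under every alternative except that 2 were higher with a random replicate block, and 0 to 1 in the fits that left out 1 tumour. Some alternatives called few of the 42924 probe sets at all, so a count of 0 members says little there. Limma called 0 in the low poly-A tumours alone, and 27 higher and 3 lower with no replicate block. Without the tumours with a changed contrast it called 139 higher and 201 lower. With no replicate block limma called 0 higher and 0 lower, and 2 members had an unadjusted p under 0.05, against 3 with the block. The calls on BAG1, TRAP1, LONP1, CRYAB and HSPA2 were also lost without the block, as were nearly all calls on other probe sets. HSP90B1 passed, and HSPA9 too, after the filter at the median level (adjusted p = 0.0358 and 0.0457), and HSP90B1 with a single probe set for each gene (0.045). That count was 0 in the high poly-A tumours alone and without the tumours with a changed 3′/5′ contrast, and 2 to 4 under the other alternatives. Without tumours 13 and 15 limma again called 0 higher and 0 lower. The number of related pairs was 5 in the low poly-A tumours alone. The HSP90AA1 minus HSP90AB1 difference was 0.13 after repeated quantile normalisation, without a call, and 0.11 to 0.17 without 1 tumour. Small mean changes turned sign, and the cause was not tested. HSP90AB1 had 0.0043 in the low poly-A tumours and 0.045 in its dimmest probe set. In the high poly-A tumours FKBP4 had -0.056, CHORDC1 -0.0756 and HSPE1 -0.0475. Without the tumours with a changed contrast CHORDC1 had -0.0228, HSPE1 -0.0271 and HSF2 -0.000509. HSPE1 had -0.035 under array weights and -0.0201 without tumours 13 and 15. Without 1 tumour CHORDC1 ran from -0.0304 to 0.042 and HSPE1 from -0.0052 to 0.0535. Of 146 alternatives for single members, 134 kept direction and call. The number of arrays limits what small changes could be detected.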

Other observations

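The 5 genes most like each of the other members over the 21 tumours were looked up after the results were seen, and the values are descriptions with no test. STIP1 and FKBP4 shared HSPH1, the HSP110 chaperone that acts as a nucleotide exchange factor of HSP70, as the closest gene outside the list (r = 0.914 and 0.832). HSPH1 ran from 7.52 over a median of 9.31 to 11.6 after and from 7.63 over 8.84 to 11.5 before treatment, and its mean change of 0.47 ± 0.24 (SE, n = 21) did not pass (limma adjusted p = 0.287). ZFAND2A, a gene known in mammals as arsenite- and heat-inducible, had r = 0.821 with STIP1, and MRPL18 was among the 5 closest to STIP1 (0.83), AHSA1 (0.795) and FKBP4 (0.786). HSPB1, a small heat shock protein, had r = 0.773 with FKBP4. CACYBP was closest to DNAJC25 (0.899), RBIS (0.899) and the glutamine transporter gene SLC1A5 (0.888), of which DNAJC25 (0.50 ± 0.13, adjusted p = 0.0259) and SLC1A5 (0.76 ± 0.15, adjusted p = 0.00489) rose.

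HSP90AB1 had other neighbours than HSP90AA1. Its 5 closest genes held the ribosomal protein genes RPL8 (0.83) and RPS9 (0.816), the ribosome-bound RACK1 (0.814) and the ATP synthase subunit ATP5F1B (0.816). These values depended on the normalisation, with 0.741, 0.69, 0.559 and 0.614 after repeated quantile normalisation. HSPE1 was closest to NDUFB6 (0.863) and to the splicing gene SNRPE (0.861), and CHORDC1 to DMAC2 (0.824) and IGFBP2 (0.723).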
